A study of Arabidopsis with 12 samples.

Results

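The tetrapyrrole synthesis pathway of Arabidopsis was followed here as 31 loci, chosen by the enzyme or subunit they encode, out of 27655 genes in the table. They comprise 5 genes of 5-aminolevulinic acid (ALA) synthesis, 8 of the common steps to protoporphyrin IX, 5 of Mg chelatase with its partner GUN4, 9 of the steps to chlorophyll a and b, and 4 of the heme and bilin branch. All 31 loci were found in the table.

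The material was 7-day-old seedlings by the sample titles, of the flu mutant and of the flu/toc33-1 double mutant (flu toc33), while the tissue label reads leaf and the design text gives an age 1 day lower. Plants had grown in continuous light. They were then kept 4 h in darkness (dark groups), or 4 h in darkness and 1 h in light (light groups). The 4 groups of 3 libraries each are flu toc33 light, flu toc33 dark, flu light and flu dark. Every plant carries flu and no wild type or toc33-1 single mutant is part of the comparison, so toc33-1 was measured only in the flu background. Light seedlings were sampled 1 h after the dark ones, and the effect of light cannot be told apart from that of the added hour. The labels do not say whether the 3 replicates came from separate cultures, so p-values measure only how far these libraries differ, which can be technical spread.

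Tetrapyrroles are made in plastids from glutamate. Glutamyl-tRNA reductase, the rate-controlling enzyme of ALA synthesis, is restrained in darkness by the FLU protein, and flu mutants lack this brake, accumulate free protochlorophyllide in the dark and release singlet oxygen when the light returns. Past protoporphyrin IX the pathway forks, with Mg chelatase leading to chlorophyll and ferrochelatase leading to heme and phytochromobilin. The enzymes are encoded in the nucleus and imported into plastids, and TOC33 is a receptor GTPase of the import machinery in the outer envelope.

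Total RNA was sequenced and the authors deposited transcript abundances as TPM, the share of a library's transcripts after scaling for length. These were summed per locus and carry no read depth. TOC33 (AT1G02280) itself had 4.28, 3.88 and 3.76 TPM in flu toc33 light libraries, 48.4, 48.2 and 49.4 TPM in flu toc33 dark libraries, against 169, 174 and 173 TPM in flu light libraries and 200.4, 194 and 215 TPM in flu dark libraries. Its level was below all flu libraries in both flu toc33 groups. Within flu toc33 it was also lower in light than in dark libraries, with a log2 difference of -3.32 (SE 0.0484, adjusted p = 9.08e-16) by limma, against -0.24 (SE 0.0484, adjusted p = 0.000663) in flu. The part of this gap in the light effects in flu toc33 was not tested. The 6 leaf markers summed to 23988 to 24485 TPM in flu toc33 light, 24766 to 25568 TPM in flu toc33 dark, against 25199 to 27400 TPM in flu light and 26585 to 28035 TPM in flu dark, and none was at 0. The 8 root markers summed to 1339 to 1370 TPM in flu toc33 light and 1524 to 1570 TPM in flu toc33 dark, against 798 to 843 TPM in flu light and 1152 to 1350 TPM in flu dark. Nearly all of this was PYK10, and the other 7 summed to at most 13.1 TPM in any library. On light in flu PYK10, TIP2.3, EXPA7 and CASP1 were called lower and WOX5 higher, and PYK10, TIP2.3, EXPA7 and CASP1 were also called in the interaction, with log2 differences between 0.43 and 1.13 (limma). The 6 seed storage genes summed to 141 to 147 TPM in flu toc33 light and 251 to 1141 TPM in flu toc33 dark, against 18.4 to 24.3 TPM in flu light and 65.0 to 71.2 TPM in flu dark. Leaf, root and seed markers thus moved with genotype and light, and their part in the results was not tested. The labels do not settle whether roots were part of the material. In RNA from many cells at once, fewer cells of a type and less RNA per cell cannot be told apart. Correlations between replicates of log2(TPM + 1) lay between 0.992 and 0.996.

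Across the pathway the members spanned a wide range of levels. CRD1 (AT3G56940), the cyclase that closes the isocyclic ring of protochlorophyllide, was the most abundant with 1379 TPM in flu toc33 light, 1071 TPM in flu toc33 dark, 1012 TPM in flu light and 1019 TPM in flu dark, and took 18.3% of the TPM of all 31 members. CHLP (AT1G74470), which reduces geranylgeranyl to the phytyl side chain, came next with 716 TPM, 964 TPM, 645 TPM and 800.0 TPM in the same 4 groups. Among genes above the filter HY2 (AT3G09150), the phytochromobilin synthase, was lowest with 21.0 TPM in flu toc33 light, 22.5 TPM in flu toc33 dark, 14.0 TPM in flu light and 17.4 TPM in flu dark. HEMA3 (AT2G31250), a minor glutamyl-tRNA reductase gene, and PORA (AT5G54190), the etioplast form of protochlorophyllide oxidoreductase, stayed under 1 TPM in each of the 12 libraries and were not tested. The other 29 members had at least 12.8 TPM in each library, so none of them entered the tests through 1 group only.

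Most members moved little between groups while a few moved much. The highest group mean exceeded the lowest by over 2-fold in 6 of the 29 tested members, by over 1.5-fold in 10, and by under 1.2-fold in 5. FC1, PORB, HEMA2, CHLH, GUN4 and CHLM were the 6, at 9.46-fold, 4.17-fold, 3.43-fold, 2.95-fold, 2.73-fold and 2.37-fold. Group means were highest in flu toc33 dark for 14 of the 29, in flu toc33 light for 10, in flu light for 2 and in flu dark for 3. They were lowest in flu light for 16 of the 29, in flu toc33 light for 6, in flu dark for 6 and in flu toc33 dark for 1. These counts of fold ranges and of highest and lowest groups are given without the same counts over all genes. They describe the members alone and do not set them apart from other genes. TPM summed over all 31 members were 6539.6 ± 66 in flu toc33 light, 6458 ± 33 in flu toc33 dark, 5601 ± 28 in flu light and 5853 ± 24 in flu dark (SD, n = 3 each).

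**Figure D1:**
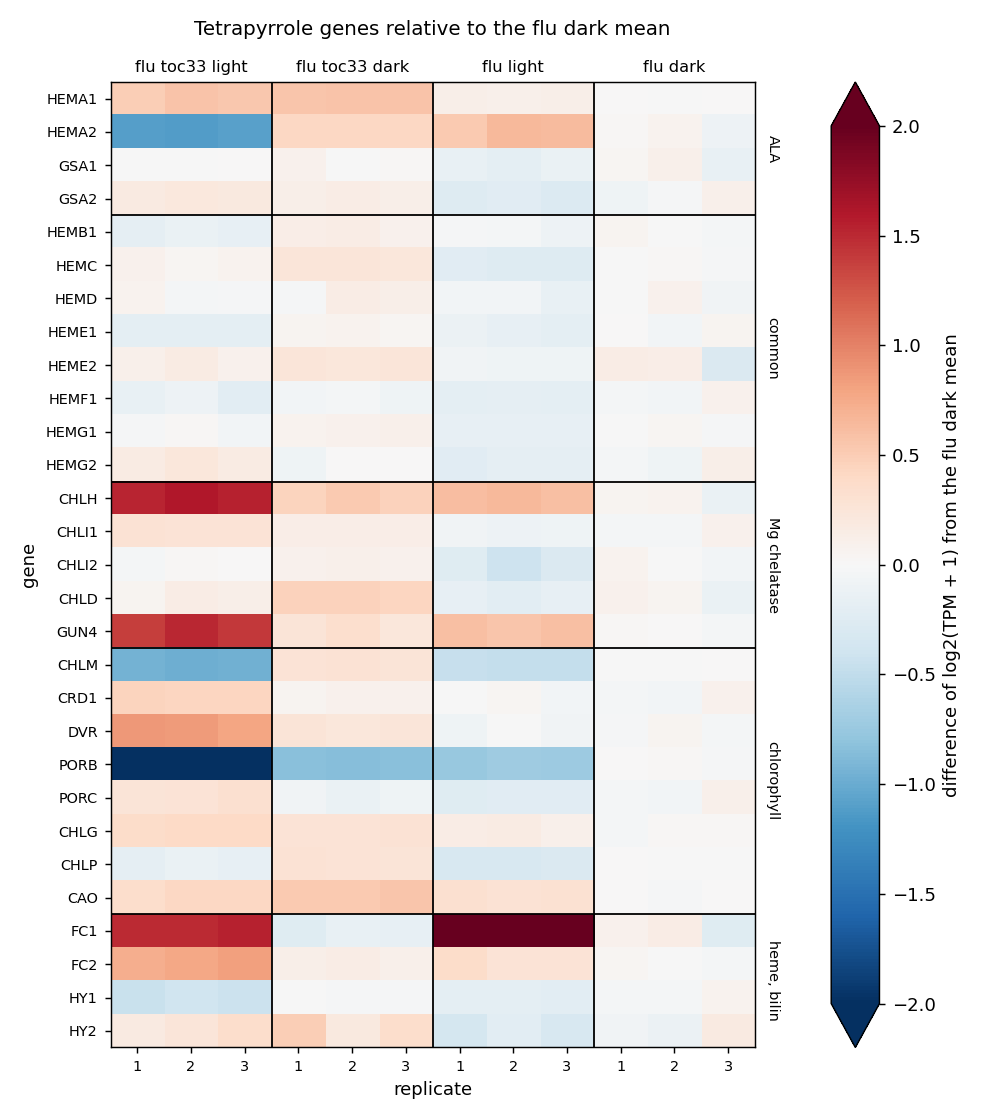
Each row is 1 of the 29 tested members in order of its step, each column 1 of the 12 libraries, and the colour gives the difference of log2(TPM + 1) from the flu dark mean, clipped at 2 either way. FC1 stands out in the light columns, PORB is lowest in flu toc33 light, and CHLH and GUN4 are highest there.

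One hour of light in flu changed most members by small amounts, with a single large rise. Of the 29 tested members, 24 passed the test (82.8%), 8 higher and 16 lower in the light, where 61.6% of the 19667 genes tested passed, 28.2% higher and 33.4% lower. The test was limma on log2(TPM + 1) with Benjamini-Hochberg adjustment over those genes and a threshold of 0.05. FC1 alone passed with at least a 2-fold change, as 12.8% of all genes did. The members' median log2 difference was -0.16, against -0.0375 over all genes. With quantile normalization, 7 members rose and 19 fell, and the share of higher genes among all calls was 35.1%, against 45.8% without it.

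In flu toc33 the same hour of light gave 6 changes of at least 2-fold, while FC1 rose less than in flu. Of the 29, 22 passed (75.9%), 10 higher and 12 lower, with 71.0% of all genes passing, 40.4% higher and 30.6% lower. Changes of at least 2-fold were found for 16.0% of all genes. Among members, CHLH, GUN4 and FC1 were higher by that much, and HEMA2, CHLM and PORB were lower. The members' median was -0.091 and that of all genes 0.072. After median-ratio scaling, 7 members were called higher and 17 lower.

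Most members were higher in flu toc33 than in flu in darkness, each by less than 2-fold. In flu toc33 dark against flu dark, 18 of the 29 were higher and only PORB was lower, so 19 passed (65.5%), while 41.4% of all genes passed, 20.9% higher and 20.5% lower. PORB had the largest difference of these, and 2.54% of all genes passed with at least 2-fold. The members' median was 0.13, against 0.012 over all genes. Quantile normalization left 12 higher and 3 lower, and median-ratio scaling left 15 higher and 2 lower. Leaving out flu dark replicate 3 gave 2 lower, FC1 being added at -0.31 (limma, adjusted p = 3.37e-05). The count of higher members lay between 13 and 18 as each library was left out.

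After light, 25 of the 29 members differed between the genotypes (86.2%), 19 higher and 6 lower in flu toc33, with 66.8% of all genes called, 39.0% higher and 27.9% lower. HEMA2, PORB and FC1 were lower by at least 2-fold, a size that 11.4% of all genes reached in either direction. The members' median was 0.26, against 0.077 over all genes. Median-ratio scaling gave 15 higher and 7 lower members, and put 46.6% of all calls on the higher side, against 58.3% without it.

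The light response differed between genotypes for 19 of the 29 members (65.5%), 10 with a higher and 9 with a lower response in flu toc33, where 56.7% of all genes were called, 31.6% higher and 25.1% lower. HEMA2 and FC1 differed by at least 2-fold, against 11.9% of all genes. Median-ratio scaling gave 7 higher and 11 lower, with 43.9% of all calls higher, against 55.8% without it. The comparisons share groups of libraries, so their counts are not independent of each other.

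Over the 5 comparisons the 29 members gave 145 values, of which 109 passed. Of these, 86 kept their call and direction under all 20 alternative settings, among them every called value above 0.31 in absolute log2 difference. The 23 that did not are small and are pointed out at each gene. Of the 36 values that did not pass, 19 passed under at least 1 alternative.

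**Figure D2:**
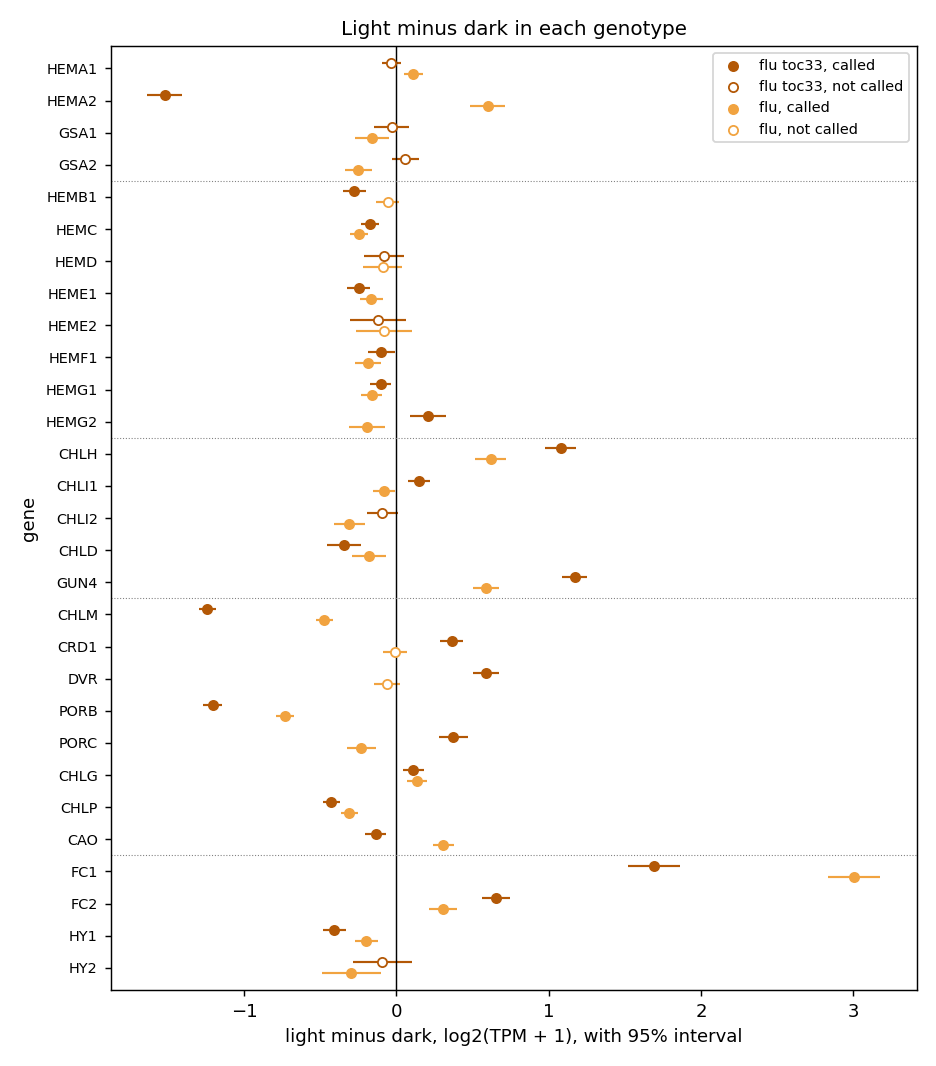
Points give the log2 difference of TPM + 1, light minus dark, for the 29 tested members in flu toc33 and in flu, with 95% confidence intervals from limma as bars. FC1 lies far to the right in both genotypes, and HEMA2 lies on opposite sides of 0.

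In ALA synthesis the isozymes of glutamyl-tRNA reductase moved differently. HEMA1 (AT1G58290), the main reductase gene of green tissue, had 237, 249.5 and 245 TPM in flu toc33 light and 246, 251 and 251 TPM in flu toc33 dark, against 183, 179.8 and 183 TPM in flu light and 168, 168 and 168 TPM in flu dark. All 6 flu toc33 libraries were above all 6 flu libraries. The genotype difference in log2 was 0.57 (SE 0.0290, adjusted p = 5.8e-09) in the dark and 0.42 (SE 0.0290, adjusted p = 1.89e-08) in the light by limma. Light raised HEMA1 in flu by 0.11 (SE 0.0290, adjusted p = 0.00422), and in flu toc33 the difference was -0.033 (SE 0.0290, adjusted p = 0.319), with an interval of -0.10 to 0.029. With median-ratio scaling the difference in flu toc33 passed, at -0.11 (limma, adjusted p = 0.0132).

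HEMA2 (AT1G09940), the second reductase gene and known from stress and non-green tissues, had 12.9, 12.8 and 13.2 TPM in flu toc33 light and 39.1, 39.1 and 39.2 TPM in flu toc33 dark. In flu it had 42.2, 45.9 and 45.5 TPM in the light and 29.7, 30.6 and 26.8 TPM in the dark. The 4 groups did not overlap, with flu light on top and flu toc33 light at the bottom. Light lowered it in flu toc33, with a log2 difference of -1.52 (SE 0.0529, adjusted p = 7.17e-12), and raised it in flu, by 0.60 (SE 0.0529, adjusted p = 2.55e-07). The difference of these responses was -2.12 (SE 0.0748, adjusted p = 4.65e-11), the largest of any member. HEMA2 was higher in flu toc33 than in flu in the dark, by 0.42 (SE 0.0529, adjusted p = 2.82e-05), and lower in the light, at -1.70 (SE 0.0529, adjusted p = 4.51e-12).

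Glutamate-1-semialdehyde aminotransferase, which forms ALA, is encoded by GSA1 (AT5G63570) and GSA2 (AT3G48730). GSA2 had 172 ± 1.9 TPM in flu toc33 light, 165 ± 2.5 in flu toc33 dark, 127 ± 1.8 in flu light and 151 ± 10 in flu dark (SD, n = 3 each). It fell in the light in flu, with a log2 difference of -0.25 (SE 0.0415, adjusted p = 0.000135), and was higher in flu toc33 than in flu after light, at 0.44 (SE 0.0415, adjusted p = 5.08e-07). Its higher level in the dark (0.13) and the difference of its light responses (0.31) passed too, but were lost with median-ratio scaling, and the dark call was lost without flu dark replicate 1, flu dark replicate 2 or flu toc33 dark replicate 2 (log2 0.09 to 0.12). GSA1 had 127 ± 0.46, 129.8 ± 4.2, 113 ± 2.0 and 127 ± 11 TPM in the same order of groups. It passed in flu on light (-0.16), where the light and dark libraries overlapped, and after light between genotypes (0.16). Neither call held when flu light replicate 2 was left out, at -0.15 and 0.15, and the first was also lost without flu dark replicate 1 or 2, at -0.14 and -0.11. HEMA3 averaged 0.456, 0.410, 0.359 and 0.435 TPM in those groups.

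In the common steps from ALA to protoporphyrin IX, the log2 differences between groups were 0.38 at most in size. Of the 8 genes, 5 passed as lower in the light in flu and the other 3 did not pass, a share of 62.5%, near the 61.6% of all genes. HEMC (AT5G08280), which makes the linear tetrapyrrole hydroxymethylbilane, had 279 ± 4.9 TPM in flu toc33 light, 314 ± 1.2 in flu toc33 dark, 224 ± 2.2 in flu light and 267 ± 3.7 in flu dark (SD, n = 3 each). It fell in the light in both genotypes, with log2 differences of -0.17 in flu toc33 and -0.25 in flu, and was higher in flu toc33 in the dark (0.24) and in the light (0.31). HEMB1 (AT1G69740), the ALA dehydratase, had 173 ± 3.4, 210.1 ± 5.2, 186 ± 4.7 and 193 ± 6.3 TPM in those groups. It fell in the light in flu toc33, at -0.28 (SE 0.0350, adjusted p = 7.8e-06) by limma, and in flu the difference was -0.056 (SE 0.0350, adjusted p = 0.183). With quantile normalization the difference in flu passed, at -0.11 (limma, adjusted p = 0.0159). The difference of the responses passed, at -0.22 (SE 0.0496, adjusted p = 0.0019). Its small genotype calls in the dark (0.12) and in the light (-0.10) did not hold under every alternative, the dark one being lost without flu toc33 dark replicate 1 or 2 (0.11 and 0.10) and the light one without flu light replicate 1 or 2 or flu toc33 light replicate 1 or 3 (-0.099 to -0.087).

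HEMD (AT2G26540), the uroporphyrinogen III synthase gene, passed in none of the 5 comparisons, with 30.7 ± 1.4 TPM in flu toc33 light, 32.5 ± 2.1 in flu toc33 dark, 28.7 ± 1.1 in flu light and 30.7 ± 1.7 in flu dark (SD, n = 3 each). Its light difference passed in flu with quantile normalization, at -0.17 (limma, adjusted p = 0.016). In flu toc33 it passed with median-ratio scaling, at -0.15 (limma, adjusted p = 0.032). Uroporphyrinogen decarboxylase has 2 genes. HEME1 (AT3G14930) averaged 105 ± 0.46, 125 ± 1.5, 107 ± 2.9 and 120.1 ± 4.5 TPM in that order and fell in the light in both genotypes, with log2 differences of -0.25 in flu toc33 and -0.16 in flu. HEME2 (AT2G40490) had 154, 162 and 153 TPM in flu toc33 light, 170.2, 169.7 and 172 TPM in flu toc33 dark, against 137, 136 and 137 TPM in flu light and 160.2, 159 and 118 TPM in flu dark. The low value of flu dark replicate 3 set its spread. Without that library HEME2 passed as lower in the light in flu toc33, at -0.12, and in flu, at -0.22 (limma, adjusted p = 1.19e-05), and as higher in flu toc33 after light, at 0.19. The difference of its light responses then passed too, at 0.099 (limma, adjusted p = 0.0336), against -0.044 with all 12 libraries. With all 12 libraries only its higher level in flu toc33 in the dark passed (0.24), and that call was lost when any of the 6 flu light or flu toc33 dark libraries was left out, at 0.23 to 0.24.

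HEMF1 (AT1G03475), the coproporphyrinogen oxidase, had 174 ± 6.5 TPM in flu toc33 light, 186 ± 3.9 in flu toc33 dark, 170.3 ± 1.3 in flu light and 194 ± 10 in flu dark (SD, n = 3 each), and fell in the light in flu, with a log2 difference of -0.19. Its fall in flu toc33 (-0.10) was lost without any of 7 libraries, at -0.10 to -0.071. Protoporphyrinogen oxidase is encoded by HEMG1 (AT4G01690) and HEMG2 (AT5G14220). HEMG1 averaged 109, 117, 98.3 and 110.1 TPM in that order, and its fall in the light in flu (-0.16) kept its call under every alternative. Its other 3 calls, all of 0.15 or less in size, did not, the dark one being lost without any of 8 libraries at 0.081 to 0.094 and its fall in flu toc33 without flu toc33 light replicate 3 at -0.086. HEMG2 averaged 31.2, 26.9, 23.8 and 27.4 TPM. Its light difference was 0.21 in flu toc33 and -0.19 in flu, and both calls were lost with median-ratio scaling. The difference between these responses, 0.40 (SE 0.0778, adjusted p = 0.000581) by limma, kept its call.

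**Figure D3:**
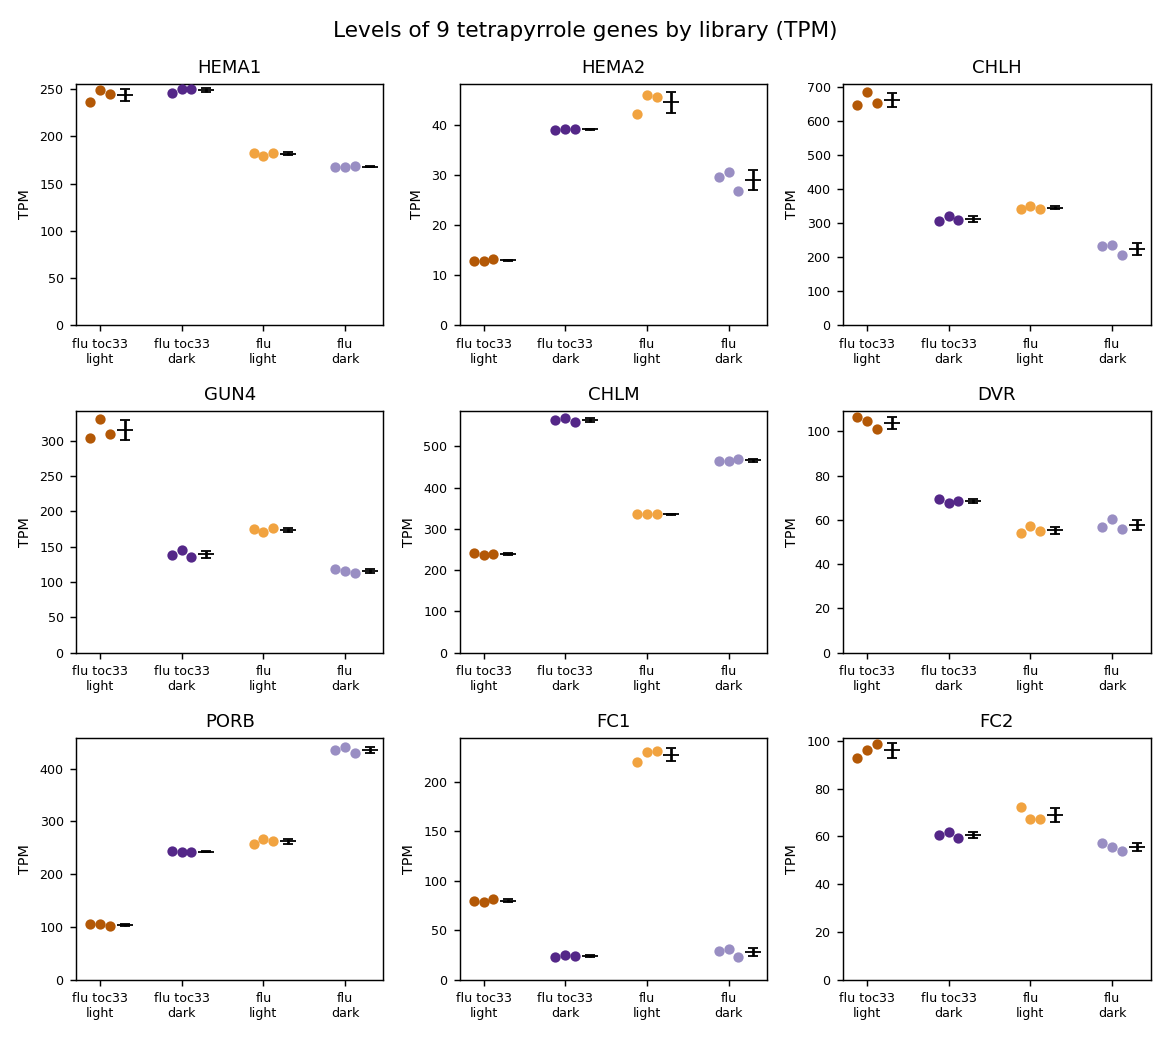
Points give TPM of 9 members in each library, with dashes at the group mean and error bars of 1 SD (n = 3), ordered flu toc33 light, flu toc33 dark, flu light, flu dark. CHLH and GUN4 share their order of groups, while CHLM and PORB are lowest where those are highest.

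At the branch to chlorophyll, CHLH and GUN4 rose together with light and with toc33-1. CHLH (AT5G13630), the porphyrin-binding subunit of Mg chelatase, had 649, 686 and 654 TPM in flu toc33 light and 308, 322 and 309 TPM in flu toc33 dark, against 343, 351 and 343 TPM in flu light and 233, 236 and 206 TPM in flu dark. The 4 groups did not overlap, and flu toc33 light lay highest. Light raised CHLH by 1.08 (SE 0.0468, adjusted p = 7.99e-11) on the log2 scale in flu toc33 and by 0.62 (SE 0.0468, adjusted p = 4.83e-08) in flu, and the responses differed by 0.46 (SE 0.0662, adjusted p = 4.88e-05). Between the genotypes it was higher in flu toc33 by 0.48 (SE 0.0468, adjusted p = 2.88e-06) in the dark and 0.94 (SE 0.0468, adjusted p = 6.37e-10) in the light.

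GUN4 (AT3G59400), which binds porphyrins and stimulates Mg chelatase, had 304, 331 and 309.5 TPM in flu toc33 light and 138, 145 and 135 TPM in flu toc33 dark. Its levels in flu were 175, 171 and 176 TPM in the light and 118, 116 and 113 TPM in the dark. As for CHLH, the 4 groups did not overlap and took the same order. The light difference was 1.17 (SE 0.0396, adjusted p = 5.29e-12) in flu toc33 and 0.59 (SE 0.0396, adjusted p = 1.36e-08) in flu, with 0.58 (SE 0.0559, adjusted p = 1.06e-06) between them. Relative to flu, flu toc33 was higher by 0.27 (SE 0.0396, adjusted p = 0.000103) in the dark and 0.85 (SE 0.0396, adjusted p = 3.02e-10) in the light.

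Of the AAA+ subunits of the chelatase, CHLD (AT1G08520) fell in the light where CHLH rose. It had 144, 153 and 151 TPM in flu toc33 light, 191, 191 and 186 TPM in flu toc33 dark, against 123, 119 and 123 TPM in flu light and 146, 144 and 125 TPM in flu dark. Light minus dark gave log2 differences of -0.34 (SE 0.0506, adjusted p = 3.29e-05) in flu toc33 and -0.18 (SE 0.0506, adjusted p = 0.00725) in flu, and was higher in flu toc33 in the dark (0.45) and in the light (0.29). The difference of its light responses, -0.16 (SE 0.0716, adjusted p = 0.067) by limma, passed with median-ratio scaling, at -0.27 (adjusted p = 0.000493), and when flu dark replicate 1 or 2 was left out, at -0.20 and -0.19. CHLI1 (AT4G18480), the main gene of the I subunit, averaged 480.0 ± 4.2 TPM in flu toc33 light, 433 ± 1.9 in flu toc33 dark, 372 ± 4.7 in flu light and 395 ± 20 in flu dark (SD, n = 3 each). Its higher level in flu toc33 after light, 0.37 (SE 0.0336, adjusted p = 3.91e-07), kept its call under every alternative. The other 4 calls of CHLI1 were lost with median-ratio scaling or quantile normalization, and its fall in the light in flu (-0.084) also without any of 10 libraries, at -0.092 to -0.043. CHLI2 (AT5G45930) averaged 67.8 ± 1.6, 72.3 ± 0.52, 54.8 ± 3.3 and 68.0 ± 2.9 TPM in the same order, fell in the light in flu (-0.31), and was higher in flu toc33 after light (0.30). The difference of its light responses (0.22) was lost with median-ratio scaling.

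Ratios within a library show how far the subunits parted. CHLH over CHLD was 4.45 ± 0.094 in flu toc33 light and 1.65 ± 0.037 in flu toc33 dark, against 2.84 ± 0.096 in flu light and 1.62 ± 0.028 in flu dark (SD, n = 3 each). It was higher in each light group than in its dark group. GUN4 over CHLH stayed between 0.445 and 0.515 in the 4 group means. TPM summed over the 5 genes of this step were 1675 in flu toc33 light, 1147 in flu toc33 dark, 1069 in flu light and 942 in flu dark.

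The next enzyme moved the other way. CHLM (AT4G25080), the methyltransferase acting on Mg-protoporphyrin IX, had 241, 236 and 238 TPM in flu toc33 light and 564, 569 and 560.0 TPM in flu toc33 dark, against 336, 335 and 335 TPM in flu light and 464, 464 and 469.5 TPM in flu dark. The groups did not overlap, and flu toc33 had both the highest level, in the dark, and the lowest, in the light. Light lowered CHLM, with log2 differences of -1.24 (SE 0.0249, adjusted p = 2.21e-14) in flu toc33 and -0.47 (SE 0.0249, adjusted p = 9.43e-10) in flu, and the responses differed by -0.77 (SE 0.0352, adjusted p = 5.74e-10). In flu toc33 it was higher in the dark (0.28, SE 0.0249, adjusted p = 1.33e-06) and lower in the light (-0.49, SE 0.0249, adjusted p = 7.54e-10). CHLM over CHLH was 0.360 ± 0.014 in flu toc33 light, 1.80 ± 0.035 in flu toc33 dark, 0.971 ± 0.014 in flu light and 2.08 ± 0.18 in flu dark (SD, n = 3 each).

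CRD1 and DVR were higher in flu toc33 after light. CRD1 had 1384, 1376 and 1377 TPM in flu toc33 light and 1061, 1077 and 1075 TPM in flu toc33 dark, while flu had 1011, 1042 and 984 TPM in the light and 992, 984 and 1079.7 TPM in the dark. The flu toc33 light libraries stood above the other 9, which lay close together. Light raised CRD1 in flu toc33 (0.36, SE 0.0355, adjusted p = 4.96e-07), while in flu the difference was -0.0078 (SE 0.0355, adjusted p = 0.865), and the responses differed by 0.37 (SE 0.0501, adjusted p = 2.64e-05). DVR (AT5G18660), the divinyl reductase, had 106, 105 and 101 TPM in flu toc33 light and 69.5, 67.8 and 68.7 TPM in flu toc33 dark, against 54.1, 57.1 and 54.8 TPM in flu light and 57.0, 60.3 and 56.0 TPM in flu dark. The flu light and flu dark libraries overlapped, and both lay below flu toc33. In flu toc33 DVR rose in the light by 0.59 (SE 0.0394, adjusted p = 8.68e-09), and in flu the difference was -0.06 (SE 0.0394, adjusted p = 0.204). With quantile normalization the difference in flu passed, at -0.13 (limma, adjusted p = 0.00682). Flu toc33 exceeded flu by 0.25 (SE 0.0394, adjusted p = 0.000218) in the dark and by 0.90 (SE 0.0394, adjusted p = 1.68e-10) in the light.

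Protochlorophyllide oxidoreductase (POR) performs the light-driven step that turns protochlorophyllide into chlorophyllide. PORB (AT4G27440), its main gene here, had 106, 105 and 102 TPM in flu toc33 light and 244, 241 and 243 TPM in flu toc33 dark, against 258, 267 and 263 TPM in flu light and 436, 441 and 431 TPM in flu dark. The groups did not overlap: flu dark was highest and flu toc33 light lowest. PORB fell in the light, with log2 differences of -1.21 (SE 0.0281, adjusted p = 9.88e-14) in flu toc33 and -0.73 (SE 0.0281, adjusted p = 2.99e-11) in flu, with -0.48 (SE 0.0398, adjusted p = 2.5e-07) between them. It was the member lower in flu toc33 both in the dark (-0.84, SE 0.0281, adjusted p = 9.99e-11) and in the light (-1.32, SE 0.0281, adjusted p = 1.16e-13).

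PORC (AT1G03630), the form of mature green tissue, had 91.0, 91.6 and 94.5 TPM in flu toc33 light and 72.4, 69.1 and 71.5 TPM in flu toc33 dark. In flu it had 63.7, 64.9 and 64.8 TPM in the light and 73.7, 72.6 and 81.3 TPM in the dark. The flu toc33 light libraries were highest and the flu light ones lowest, and the dark groups did not differ past the threshold (-0.093, SE 0.0437, adjusted p = 0.106). With quantile normalization the dark difference passed, at -0.13 (limma, adjusted p = 0.0454). Light raised PORC in flu toc33 (0.37, SE 0.0437, adjusted p = 3.2e-06) and lowered it in flu (-0.23, SE 0.0437, adjusted p = 0.000419), a difference of 0.60 (SE 0.0617, adjusted p = 1.88e-06). PORA was listed at 0.0390 to 0.0793 TPM in flu toc33 light and 0.0391 to 0.117 TPM in flu toc33 dark, against 0.632 to 0.978 TPM in flu light and 0.350 to 0.705 TPM in flu dark. Its flu toc33 and flu libraries did not overlap, but PORA lay below the filter and its own change was not tested. The log2 ratio of PORA to PORB differed by 1.04 for light and 0.45 for toc33 (exact permutation test, two-sided, adjusted p = 0.01 each). PORA lay below the pseudocount of 1 TPM, and with a pseudocount of 0.1 TPM the toc33 value was -1.06. TPM summed over the POR genes were 197 in flu toc33 light, 314 in flu toc33 dark, 328 in flu light and 512 in flu dark. CRD1 over this sum, that is the step making the substrate over the step using it, was 7.00, 3.42, 3.09 and 1.99 in that order of groups.

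The last steps to chlorophyll gave smaller differences. CHLG (AT3G51820), the chlorophyll synthase that attaches the phytyl chain, had 187 ± 2.1 TPM in flu toc33 light, 173 ± 1.1 in flu toc33 dark, 156 ± 3.5 in flu light and 142 ± 3.6 in flu dark (SD, n = 3 each). It was higher in flu toc33 by 0.28 in the dark and 0.26 in the light, while its light calls (0.11 in flu toc33 and 0.13 in flu) did not hold under every scaling. CHLP fell in the light, with log2 differences of -0.43 (SE 0.0259, adjusted p = 3.07e-09) in flu toc33 and -0.31 (SE 0.0259, adjusted p = 1.49e-07) in flu by limma. Its level was higher in flu toc33 in the dark (0.27), whereas its call in the light (0.15) was lost with median-ratio scaling and with quantile normalization. CAO (AT1G44446), the oxygenase that makes chlorophyll b, had 102, 106 and 106 TPM in flu toc33 light and 115, 114 and 117 TPM in flu toc33 dark, against 99.5, 97.4 and 98.7 TPM in flu light and 79.7, 78.5 and 79.9 TPM in flu dark. Flu dark was the lowest group and flu toc33 dark the highest. Light lowered CAO in flu toc33 (-0.14, SE 0.0317, adjusted p = 0.00161) and raised it in flu (0.31, SE 0.0317, adjusted p = 1.28e-06), with -0.44 (SE 0.0448, adjusted p = 1.65e-06) between them. It was higher in flu toc33 in the dark (0.53, SE 0.0317, adjusted p = 2.53e-08). Its call in the light (0.085) turned to -0.023 with median-ratio scaling and was lost without flu light replicate 2 or 3 or flu toc33 light replicate 2 or 3, at 0.075 to 0.087.

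**Figure D4:**
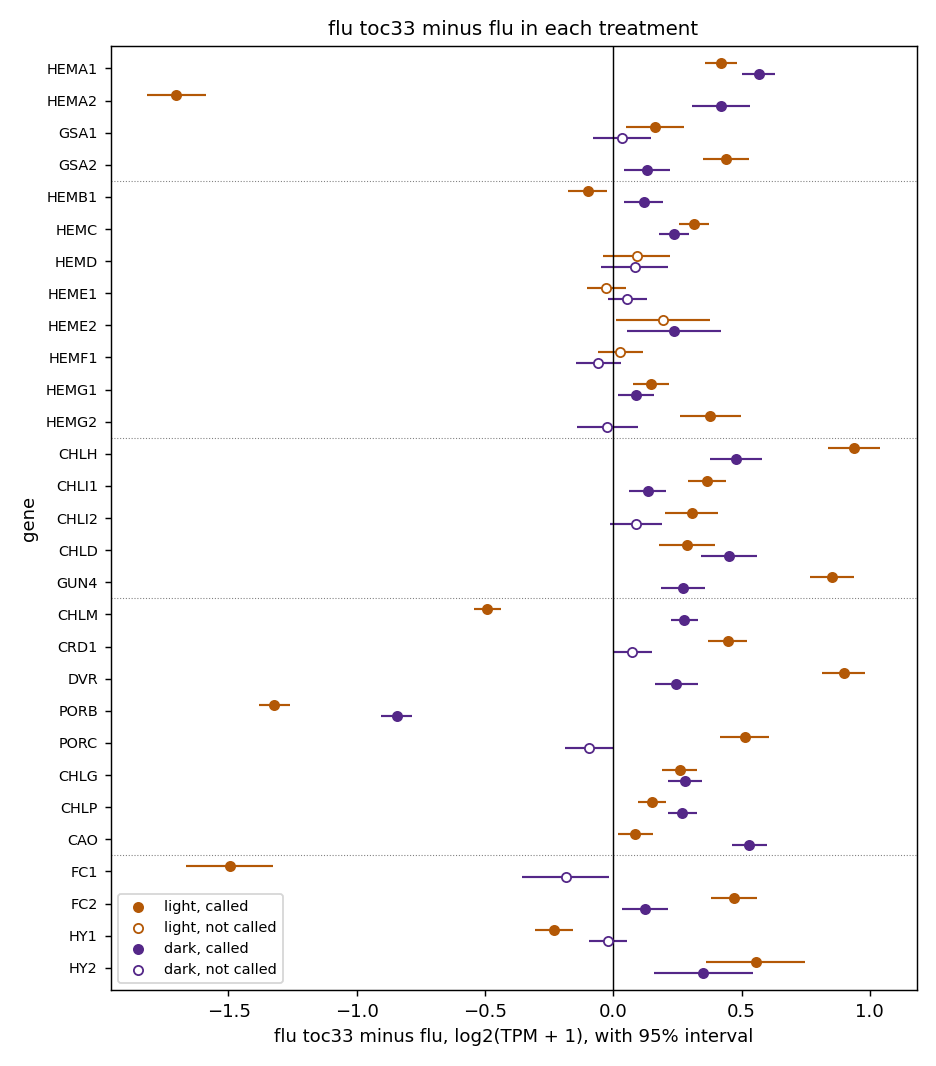
Points give the log2 difference of TPM + 1, flu toc33 minus flu, for the 29 tested members in the light and in the dark, with 95% confidence intervals from limma as bars. Most dark points lie just right of 0, PORB lies left of 0 in both conditions, and HEMA2 and FC1 lie far to the left in the light.

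On the heme side, FC1 gave the largest response of the pathway. FC1 (AT5G26030), the ferrochelatase form known for its expression under stress and in roots as well as leaves, had 79.0, 79.0 and 81.5 TPM in flu toc33 light and 23.0, 24.5 and 24.4 TPM in flu toc33 dark. In flu it had 219.7, 230.3 and 231 TPM in the light and 29.2, 30.6 and 23.0 TPM in the dark. All light libraries stood above all dark ones, and flu light stood above flu toc33 light, while the dark groups of the genotypes overlapped. On the scale of TPM + 1, light raised FC1 3.23-fold in flu toc33, a log2 difference of 1.69 (SE 0.0784, adjusted p = 1.62e-10), and 8.03-fold in flu, a log2 difference of 3.00 (SE 0.0784, adjusted p = 4.6e-13). The responses differed by -1.31 (SE 0.111, adjusted p = 2.88e-07). Between the genotypes, flu toc33 minus flu, the log2 difference of FC1 was -1.496 in the light (SE 0.0784, adjusted p = 1.05e-09), a lower level in flu toc33, and -0.18 (SE 0.0784, adjusted p = 0.076) in the dark. By limma the dark difference passed with median-ratio scaling (-0.18, adjusted p = 0.0337) and with quantile normalization (-0.20, adjusted p = 0.0241). It also passed without flu dark replicate 3, at -0.31 (limma, adjusted p = 3.37e-05).

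FC2 (AT2G30390), the ferrochelatase that predominates in photosynthetic tissue, had 92.9, 96.1 and 98.9 TPM in flu toc33 light and 60.6, 61.9 and 59.5 TPM in flu toc33 dark, against 72.4, 67.5 and 67.1 TPM in flu light and 57.4, 55.6 and 53.9 TPM in flu dark. Flu toc33 light was highest and flu light next, and flu dark was lowest. Light raised FC2 by 0.65 (SE 0.0420, adjusted p = 5.89e-09) in flu toc33 and by 0.31 (SE 0.0420, adjusted p = 2.35e-05) in flu, with 0.35 (SE 0.0594, adjusted p = 0.000217) between the responses, so here flu toc33 had the larger rise. It was higher in flu toc33 after light (0.47, SE 0.0420, adjusted p = 2.85e-07). In the dark its call (0.12) was lost with quantile normalization and without flu dark replicate 2 or 3 or flu toc33 dark replicate 1 or 2, at 0.10 to 0.12.

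The bilin steps fell or held. HY1 (AT2G26670), the heme oxygenase that opens the heme ring, had 127 ± 2.6 TPM in flu toc33 light, 169 ± 0.62 in flu toc33 dark, 149 ± 0.84 in flu light and 171 ± 7.7 in flu dark (SD, n = 3 each). It fell in the light, with log2 differences of -0.41 (SE 0.0349, adjusted p = 1.29e-07) in flu toc33 and -0.20 (SE 0.0349, adjusted p = 0.000238) in flu, with -0.21 (SE 0.0493, adjusted p = 0.00244) between them, and was lower in flu toc33 after light (-0.23). HY2 averaged 21.0 ± 1.4, 22.5 ± 2.4, 14.0 ± 0.74 and 17.4 ± 2.1 TPM in the same order. It was higher in flu toc33 in the dark (0.35, SE 0.0895, adjusted p = 0.00645) and in the light (0.56, SE 0.0895, adjusted p = 9.06e-05), and fell in the light in flu (-0.30, SE 0.0895, adjusted p = 0.0107).

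The summed levels differed by branch. Light went with a larger Mg chelatase sum in both genotypes. It was 1675 TPM in flu toc33 light and 1147 TPM in flu toc33 dark, against 1069 TPM in flu light and 942 TPM in flu dark. The heme and bilin sum was also larger in the light in both, at 459 TPM in flu light and 272 TPM in flu dark. In flu toc33 the heme and bilin sum was 324 TPM in the light and 276 TPM in the dark. Within these sums CHLD and HY1 fell in the light in both genotypes. ALA synthesis summed to 556 TPM in flu toc33 light and 584 TPM in flu toc33 dark, against 467 TPM in flu light and 476 TPM in flu dark. The common steps summed to 1059, 1182, 975 and 1088 TPM, and the steps to chlorophyll to 2926, 3269, 2631 and 3076 TPM, in that order of groups. These sums are descriptions without a test. At the fork, CHLH over the sum of FC1 and FC2 was 3.77 ± 0.15 in flu toc33 light and 3.70 ± 0.027 in flu toc33 dark, against 1.17 ± 0.016 in flu light and 2.70 ± 0.036 in flu dark (SD, n = 3 each). Flu light was thus the group with the lowest ratio of Mg chelatase to ferrochelatase transcripts.

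Isozyme shares are given for ferrochelatase, POR and glutamyl-tRNA reductase, and tests for all pairs follow. FC1 made up 45.4% ± 0.48 of ferrochelatase TPM in flu toc33 light and 28.4% ± 0.79 in flu toc33 dark, against 76.7% ± 1.3 in flu light and 33.1% ± 2.9 in flu dark (SD, n = 3 each). PORC made up 46.9% ± 0.92 of POR TPM in flu toc33 light and 22.6% ± 0.35 in flu toc33 dark, against 19.7% ± 0.15 in flu light and 14.8% ± 0.93 in flu dark. HEMA1 made up 94.8% ± 0.16 of glutamyl-tRNA reductase TPM in flu toc33 light and 86.3% ± 0.11 in flu toc33 dark, against 80.2% ± 0.84 in flu light and 85.1% ± 0.92 in flu dark. FC1 was thus the major ferrochelatase transcript in flu light alone, and PORC neared PORB in flu toc33 light alone.

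**Figure D5:**
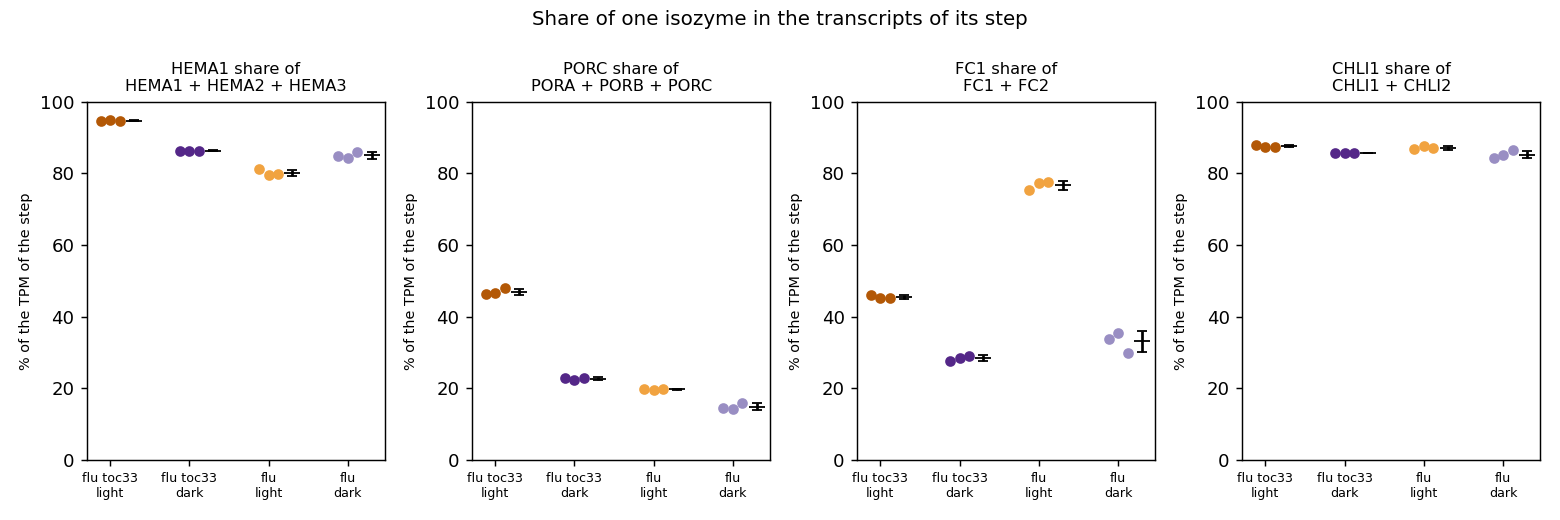
Points give the percentage of a step's TPM held by HEMA1, PORC, FC1 and CHLI1 in each library, with dashes at the group mean and error bars of 1 SD (n = 3). HEMA1 and PORC have their largest shares in flu toc33 light, FC1 has its largest in flu light, and CHLI1 stays between 85.3% and 87.6% in the group means.

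Log2 ratios of isozymes within a library were compared for 8 pairs and 2 factors by an exact two-sided permutation test within the strata of the other factor, with Benjamini-Hochberg adjustment over the 16 tests, and 0.005 is the smallest p that its 400 arrangements can give. FC1 over FC2 was higher in light than dark libraries by 1.87 and lower in flu toc33 than flu, at -1.14 (exact permutation, adjusted p = 0.01 each). The first is a mean of 1.04 in flu toc33 and 2.70 in flu, the second of -0.31 in the dark and -1.97 in the light. PORC over PORB was higher in the light by 1.04 and higher in flu toc33 by 1.29 (exact permutation, adjusted p = 0.01 each). The first is a mean of 1.58 in flu toc33 and 0.50 in flu, the second of 0.75 in the dark and 1.83 in the light. HEMA1 over HEMA2 was higher in flu toc33 by 1.14 (exact permutation, adjusted p = 0.01), a mean of 0.15 in the dark and 2.12 in the light. For light the mean difference of HEMA1 over HEMA2 was 0.50 (exact permutation, adjusted p = 0.147), made of 1.49 in flu toc33 and -0.49 in flu. CHLI1 over CHLI2 was higher in the light by 0.23 (exact permutation, adjusted p = 0.01). HEMG1 over HEMG2 did not pass for light (-0.14, exact permutation, adjusted p = 0.0873) or for genotype (-0.06, exact permutation, adjusted p = 0.485). GSA1 over GSA2 and HEME1 over HEME2 were lower in flu toc33, at -0.19 and -0.20 (exact permutation, adjusted p = 0.032 and 0.0267), but the GSA call was lost without any of 11 libraries (-0.20 to -0.16) and the HEME call without any flu toc33 dark library (-0.21 to -0.19). Isozymes similar in sequence share reads in the abundance estimate, which makes the split between them less certain than their sum.

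Of the 31 members, 17 have more than 1 transcript in the table, and the 31 have 62 transcripts in all. For CHLM the share of transcript AT4G25080.2 was 36.0% in flu toc33 light, 26.6% in flu toc33 dark, 27.5% in flu light and 28.6% in flu dark. For CAO, transcript AT1G44446.4 held 3.75% in flu toc33 light and 4.02% in flu toc33 dark, against 11.1% in flu light and 11.1% in flu dark. The flu dark libraries ran from 1.66% to 27.6%, at 3.22, 1.30 and 22.1 TPM, so replicate 3 set that mean. HY2 transcript AT3G09150.1 held means of 3.78%, 12.4%, 12.1% and 14.4% in that order. Its share in single libraries ran from 0% to 30.3% in flu dark, at 2.16, 0 and 6.03 TPM. That range takes in every library of the other groups. It ran from 3.72% to 18.4% in flu toc33 dark and from 0.069% to 6.69% in flu toc33 light. The HY2 means thus do not set flu dark apart from the other groups. These transcripts were picked after their values were seen and are given without a test.

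Genes that serve the pathway outside its enzyme steps were counted from a list of 23, of which 20 were tested. In flu toc33 after light 14 were higher and 2 lower than in flu, and in the dark 10 were higher and 1 lower, which is 80% and 55% of the 20 called, against 66.8% and 41.4% of all genes. Light raised 9 and lowered 6 in flu toc33, and raised 5 and lowered 8 in flu, and the responses differed for 12, 6 in each direction. These are 75%, 65% and 60% of the 20, near the 71.0%, 61.6% and 56.7% of all genes. FLU (AT3G14110), the brake whose gene is mutated in all groups, had 208, 204 and 209 TPM in flu toc33 light, 224, 214 and 206 TPM in flu toc33 dark, against 172, 166 and 171 TPM in flu light and 177, 183 and 195 TPM in flu dark. It was higher in flu toc33 by 0.21 (SE 0.0404, adjusted p = 0.000844) in the dark and 0.29 (SE 0.0404, adjusted p = 2.76e-05) in the light by limma.

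TSPO (AT2G47770), a membrane protein that binds heme and porphyrins, was higher in flu light than in flu toc33 light, like FC1. It had 10.2, 9.33 and 9.32 TPM in flu toc33 light and 4.74, 4.05 and 5.35 TPM in flu toc33 dark, against 20.2, 22.9 and 20.7 TPM in flu light and 2.71, 2.83 and 3.22 TPM in flu dark. Light raised it by 0.90 (SE 0.0901, adjusted p = 6.5e-07) in flu toc33 and 2.51 (SE 0.0901, adjusted p = 1.43e-11) in flu, and the responses differed by -1.60 (SE 0.127, adjusted p = 1.53e-07). UPM1 (AT5G40850), which diverts uroporphyrinogen III to siroheme, had 139, 141 and 136 TPM in flu toc33 light and 151, 151 and 155 TPM in flu toc33 dark, against 102, 95.4 and 98.9 TPM in flu light and 203, 204 and 212 TPM in flu dark. Flu light lay lowest, with log2 differences on light of -0.13 (SE 0.0345, adjusted p = 0.0038) in flu toc33 and -1.05 (SE 0.0345, adjusted p = 5.21e-12) in flu. LCAA (AT5G58250), a partner of the cyclase, responded to light by 0.12 in flu toc33 and -0.40 in flu, a difference of 0.51 (SE 0.0539, adjusted p = 2.56e-06) by limma. For GGPS11 (AT4G36810), which supplies geranylgeranyl diphosphate, the responses differed by 0.54 (SE 0.0711, adjusted p = 1.98e-05), and for GBP (AT3G21200), which stabilises glutamyl-tRNA reductase, by 0.37 (SE 0.0567, adjusted p = 7.63e-05). NYC1 (AT4G13250), a chlorophyll b reductase of chlorophyll breakdown, rose more in flu (0.59) than in flu toc33 (0.089), with a difference of -0.51 (SE 0.0473, adjusted p = 7.96e-07).

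Of 10 known transcriptional regulators of the pathway, all tested, light raised 3 and lowered 5 in flu toc33, and likewise 3 and 5 in flu. That is 80% called in each genotype, against 71.0% of all genes in flu toc33 and 61.6% in flu. HY5 (AT5G11260), an activator of light-induced genes, rose in the light by 2.00 (SE 0.0555, adjusted p = 6.28e-13) in flu toc33 and 1.72 (SE 0.0555, adjusted p = 4.6e-12) in flu by limma. CCA1 (AT2G46830), a MYB factor of the clock, rose by 1.58 in flu toc33 and 1.68 in flu. The phytochrome-interacting repressors fell: log2 differences were -0.68 in flu toc33 and -1.20 in flu for PIF1 (AT2G20180), and for PIF3 (AT1G09530) -1.002 in flu toc33 and -0.67 in flu. RVE1 (AT5G17300), a MYB-like factor related to those of the clock, fell with log2 differences of -1.56 in flu toc33 and -0.31 in flu. These are changes of transcript level, and what they did to the members was not tested.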

How the data were processed

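The libraries were made from total RNA of flu and flu toc33 and read on a DNBSEQ-T7 platform, per the labels' protocols. The authors deposited transcript abundances in TPM for 48359 transcripts in 12 libraries, each column summing to 1000000. Per the submitters' processing notes, kallisto 0.46.2, sleuth 0.30.0 and TAIR10 were used; the sources used here give no transcript set, strand or filter. TPM holds no depth, so counting error and limits of detection cannot be given, and being shares, values of all genes fall when a few rise much.

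Transcripts were summed to 27655 loci. Loci were checked against RefSeq gene names of assembly TAIR10.1, where all 85 listed loci were found; no coordinates were taken from it. Sequences of members were not analysed here. A gene was tested if 3 or more libraries reached 1 TPM (19667 genes), which includes 29 of 31 members. Values were log2(TPM + 1), so fold changes of low genes are understated. Comparisons used limma 3.58.1 (R 4.3.3) with 4 group means over all 12 libraries, a trend of the spread with level, two-sided, Benjamini-Hochberg adjustment over all genes tested, threshold 0.05. The design allowed for a count test, which TPM values cannot enter. Isozyme ratios used an exact permutation test. The scripts were tested on simulated data. The alternatives comprised a pseudocount of 0.1 or 5 TPM, a filter at 5 TPM or none, quantile normalization, median-ratio scaling, a replicate block, the compared groups alone, and leaving out each library.

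The genes named are all 31 members, TOC33 and FLU, up to 6 related genes called in the interaction or with at least a 2-fold change, and regulators called with at least a 2-fold change. Members and lists were chosen with earlier results of these data known.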

Additional observations from a re-analysis of the deposited data

Results flagged for a closer look

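For 19 members the light response differed between the genotypes by limma's test of the interaction, flu toc33 minus flu on the log2 scale. The response was higher in flu toc33 for CHLH (0.46), GUN4 (0.58), CHLI1 (0.23) and CHLI2 (0.22) among the Mg chelatase genes. It was also higher for DVR (0.65), PORC (0.60) and CRD1 (0.37) on the way to chlorophyll, and for HEMG2 (0.40), FC2 (0.35) and GSA2 (0.31). The response was lower in flu toc33 for HEMA2 (-2.12), FC1 (-1.31), CHLM (-0.77), PORB (-0.48) and CAO (-0.44), and by smaller amounts for HEMB1 (-0.22), HY1 (-0.21), HEMA1 (-0.15) and CHLP (-0.12). The members that went down in flu toc33 while they went up in flu, each past the threshold, were HEMA2 and CAO, and those that went up in flu toc33 while they went down in flu were CHLI1, HEMG2 and PORC. The interaction calls of CHLI1, CHLI2 and GSA2 were lost with median-ratio scaling. The light calls of CHLI1 and HEMG2 in each genotype were lost with it too.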

How the results depend on the processing

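All values are log2 differences unless said otherwise. The pseudocounts of 0.1 and 5 TPM and the 5 TPM filter changed no call of a tested member; the other settings changed some, each of 0.31 or less among called values. With median-ratio scaling, CAO (toc33 in light, -0.023), HEMD (-0.015) and HEMF1 (-0.081) there, GSA2 (light in flu toc33, -0.016) and, in the interaction, HEMC (-0.032), HEMD (-0.099), HEMF1 (-0.022) and HEMG1 (-0.049) turned sign; CAO alone of these had been called. Quantile normalization turned CHLG (0.034) and HEME2 (0.0044) in the interaction, and CRD1 (-0.0067), GSA1 (-0.026) and HEME1 (-0.0012) in toc33 in the dark. CRD1 on light in flu became 0.028 and 0.026 under these 2 scalings. None of these 6 was called. The median of all genes moved by less than 0.1 under either scaling.

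Leaving out 1 library turned the sign only of values that were not called: HEMD (-0.045 to 0.046) and HEME2 (-0.12 to 0.099) in the interaction, CRD1 on light in flu (-0.032 to 0.035), and in toc33 in the dark GSA1 (-0.041 to 0.086), HEMG2 (-0.064 to 0.036) and HY1 (-0.041 to 0.016). The turned value of HEME2, 0.099 without flu dark replicate 3, passed (limma, adjusted p = 0.0336). Without that library GSA1 (0.20), HEMC (0.085) and HEME1 (-0.11) also passed in the interaction, and CRD1 (0.12) passed in toc33 in the dark. Members called lower in toc33 in the dark numbered 2 with median-ratio scaling, 2 without a filter, 3 with quantile normalization and 1 to 2 as each library was left out, against 1. The other counts of called members stayed within 1.5 times. Among isozyme ratios, leaving out each library moved GSA1/GSA2 for light between -0.063 and 0.032 and for toc33 between -0.25 and -0.16, HEME1/HEME2 for toc33 between -0.25 and -0.12, CHLI1/CHLI2 for toc33 between 0.028 and 0.088, and HEMG1/HEMG2 for light between -0.18 and -0.11, with the test's verdict changing in each of the 5. PORA/PORB for toc33 became -1.06 with a pseudocount of 0.1 TPM, against 0.45, since PORA lies below the pseudocount.

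Libraries that share a replicate number were not treated as paired in the main tests. Their deviations correlated between -0.17 and 0.13, 1 of 18 pairs was above 0.1, and 3 of 12 libraries matched best with their own number. With 3 libraries per group, such correlations cannot show that no pairing existed. With the replicate number as a block, 3 of the 109 member calls were lost. The isozyme ratios then stayed at 0.23 for CHLI1/CHLI2 on light, 1.87 and -1.14 for FC1/FC2 on light and toc33, -0.19 for GSA1/GSA2, 1.14 for HEMA1/HEMA2 and -0.20 for HEME1/HEME2 on toc33, 1.04 and 0.45 for PORA/PORB and 1.04 and 1.29 for PORC/PORB on light and toc33. None passed under the block, which has fewer arrangements than the main test and so a larger smallest p. With this limit the block cannot tell whether those calls hold. Adjusted p by exact permutation was 0.1 for GSA1/GSA2 and HEME1/HEME2 and 0.0625 for the others named. TPM holds no depth, so how far depth limits the low genes HEMA3 and PORA is unknown.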
